A study of Mus musculus with 19 samples.

Results

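Among the 56980 genes counted in CD11b-enriched brain cells of mice with and without PARK7/DJ-1, 9 regulators of apoptosis and necroptosis were examined. They were chosen by name, without a measured value as a criterion but with earlier results of these data known. All 9 passed the filter on low counts. The genes were Apaf1, Casp8, Cflar, Mcl1, Bcl2, Bcl2l11, Birc3, Ripk3 and Mlkl. The cells came from 19 male mice, 3 to 4 months old, that were either Park7 knock-out (KO) animals or their wildtype littermates. Each mouse received 1 intraperitoneal injection 6 h before perfusion, either lipopolysaccharide (LPS, from E. coli O55:B5) at 4 μg per g body weight or saline (PBS, here called baseline). The groups held 5 KO mice with LPS, 5 KO mice at baseline, 5 wildtype mice with LPS and 4 wildtype mice at baseline. The KO line carries a gene trap in Park7 in every cell, and was backcrossed to C57BL/6NCrl, so the deficit is not limited to myeloid cells. CD11b beads retain myeloid cells in general, so the fraction can hold monocytes, neutrophils and macrophages of the brain borders beside microglia, which the labels name as the cell type.

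Apoptosis is run by caspases. Signals from inside the cell release cytochrome c from mitochondria, which assembles APAF1 into the apoptosome. The BCL2 family governs that release, with MCL1 and BCL2 as guardians and BIM, the product of Bcl2l11, as a BH3-only protein that neutralises them. Death receptors such as FAS and the TNF receptor instead activate caspase-8, and FLIP, the product of Cflar, is a caspase-8 relative without protease activity that limits it. cIAP2, the product of Birc3, is a ubiquitin ligase of the TNF receptor complex that favours survival signalling through NF-kappaB. When caspase-8 is held back, RIPK3 can phosphorylate MLKL, which then breaks the plasma membrane in a lytic death called necroptosis. Several of these genes are known targets of NF-kappaB or interferon signalling in myeloid cells.

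The promoters of Mlkl, which changed most, and of Cflar are shown, because they were the only ones of the 9 to hold a match to any of 3 motifs searched for. Each window spans 250 bases before to 50 bases after the start of the canonical transcript in GENCODE M39, read 5′ to 3′ on the gene's strand of GRCm39, and capitals mark the matched letters. The Mlkl window lies at chr8:112064819-112065118 on the minus strand and the Cflar window at chr1:58752095-58752394 on the plus strand.
Mlkl: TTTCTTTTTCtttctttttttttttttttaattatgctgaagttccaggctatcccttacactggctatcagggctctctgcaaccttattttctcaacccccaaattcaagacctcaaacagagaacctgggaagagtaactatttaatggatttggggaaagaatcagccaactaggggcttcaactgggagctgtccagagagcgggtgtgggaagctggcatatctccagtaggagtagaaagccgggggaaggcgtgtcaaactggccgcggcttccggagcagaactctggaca
Cflar: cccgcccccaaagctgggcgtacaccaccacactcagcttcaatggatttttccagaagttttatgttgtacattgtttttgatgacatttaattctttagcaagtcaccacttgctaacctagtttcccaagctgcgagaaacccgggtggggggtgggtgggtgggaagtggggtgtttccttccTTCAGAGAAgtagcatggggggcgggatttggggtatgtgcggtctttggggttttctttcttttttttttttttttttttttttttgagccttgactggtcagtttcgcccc
In Mlkl the capitals match a pair of GAAA repeats with 2 bases of any kind between them, the core of the interferon-stimulated response element, on the opposite strand at bases -250 to -241 from the start. In Cflar the capitals match TTCNNNGAA, the core bound by STAT proteins, at bases -63 to -55. Searched on both strands, that pattern was present in 3.84% and TTCNNNGAA in 8.81% of 21770 promoters of the same length. The NF-kappaB consensus was present in 4.87% of them, and those letters did not occur in the 9 windows examined here. Neither of the 2 matches overlapped another motif, and a match describes letters in a window, not a site.

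Sequencing depth ranged from 11936364 to 22788884 counts per library, so that 3 counts, the limit taken for a gene not seen, corresponded to 0.139 to 0.256 CPM (counts-per-million of the scaled library size). Park7 measured 0.457 to 5.38 CPM in the 10 KO libraries and 20.6 to 32.1 CPM in the 9 wildtype libraries, with no overlap, as the labels require. Of 10 microglia markers, 9 were found by name and were present in every library. All 9 fell after LPS in both genotypes (edgeR, adjusted p under 0.05), their sum going from 25267 to 40571 CPM at baseline to 10565 to 17005 CPM after LPS. The 5 monocyte markers all rose in both genotypes. Of 8 neutrophil markers, 4 rose in wildtype and 5 in KO mice, and their sum ranged from 18.9 to 164 CPM at baseline and from 93.1 to 376 CPM after LPS. Of 6 markers of border-associated macrophages, 3 (Cd163, Lyve1 and Cbr2) fell in both genotypes. Of 4 endothelial markers only Cldn5 fell, in both genotypes. Only Cd79b of 4 B cell markers passed the filter on low counts, and it fell in both. Of 5 astrocyte markers only Gfap rose, and of 4 neuronal markers only Tubb3, each in both genotypes. The other endothelial, astrocyte and neuronal markers did not pass the test in either genotype. None of 5 oligodendrocyte markers passed the test, but their sum varied within every group, up to 11235 CPM in KO LPS mouse 1. The part of these cell types in the values that follow was not tested, beyond the covariate fits given. On a principal component analysis KO LPS mouse 5 lay apart from the other 18 libraries.

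LPS moved most of these death regulators, in both genotypes alike in direction. In wildtype mice 6 of the 9 genes rose (Apaf1, Cflar, Mcl1, Birc3, Ripk3 and Mlkl), Bcl2l11 and Casp8 fell, and Bcl2 did not pass. A gene was called where edgeR's quasi-likelihood test gave an adjusted p under 0.05 and the log2 fold change was at least 0.5 in size. By the same rule 18.4% of all 18739 genes tested rose and 17.4% fell, 35.9% together. In KO mice the same 6 genes rose and Bcl2l11 fell, while Casp8 missed the fold threshold and Bcl2 missed both, against 20.1% of all genes rising and 19% falling, 39.1% together. The median log2 fold change of the 9 genes was 1.02 in wildtype and 1.16 in KO mice, compared with -0.06 and -0.01 over all genes. In this bulk material, fewer cells of a type and less RNA per cell cannot be told apart.

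**Figure D1:**
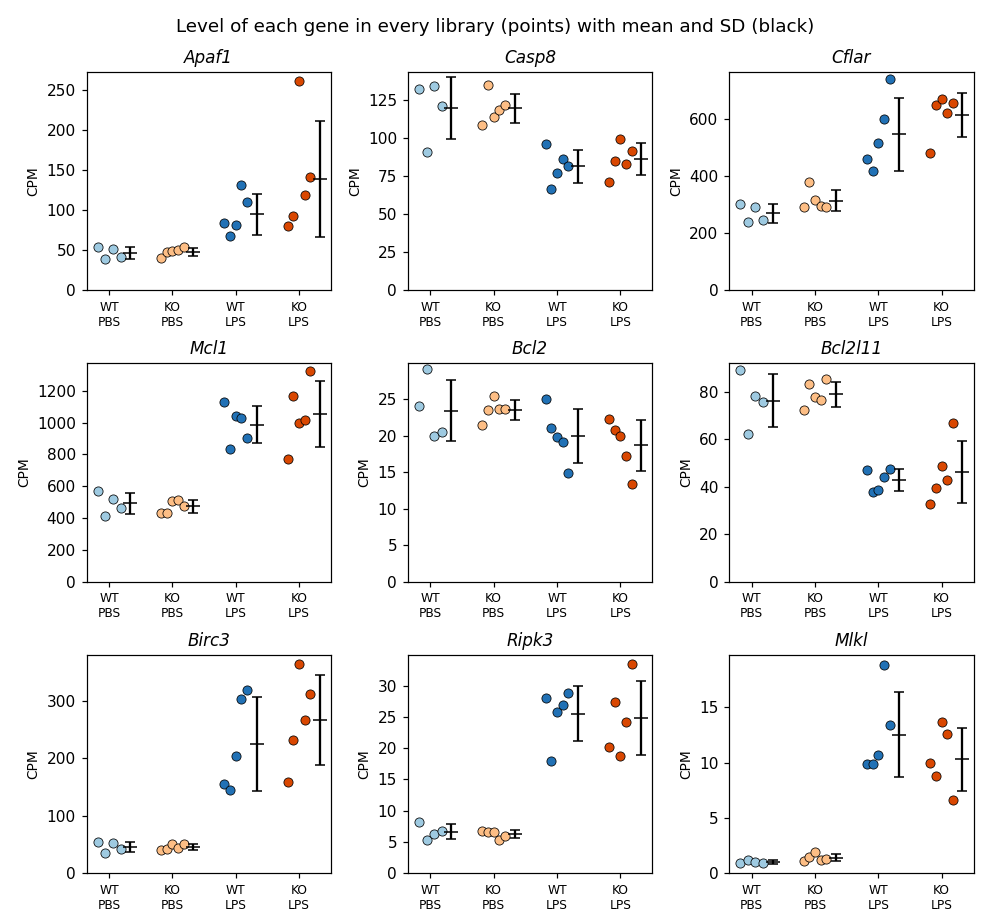
Level of each gene in CPM (counts scaled to a common library size, linear axis from 0) in every library, as points, for wildtype (WT) and KO mice at baseline (PBS) and after LPS, with the group mean and SD in black (n = 4 for WT PBS, 5 for the others). The LPS points of Cflar, Mcl1, Birc3, Ripk3, Mlkl and Apaf1 sit above all baseline points of the same genotype and those of Bcl2l11 below, while the Bcl2 points overlap.

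Of the genes that start apoptosis, Apaf1 (chr10:90825173-90918686, minus strand, 27 exons in the canonical transcript) encodes the scaffold of the apoptosome. In wildtype mice it measured 53.9, 38.3, 50.7 and 41.6 CPM at baseline and 83.3, 68.1, 80.9, 132 and 110 CPM after LPS. In KO mice it measured 39.5, 47.9, 48.4, 49.8 and 53.4 CPM at baseline and 79.9, 93.0, 261, 119 and 141 CPM after LPS. Every LPS library lay above every baseline library of its genotype, a separation that 20.8% of all genes showed upwards in wildtype and 16.2% in KO mice (37.8% and 32.8% in either direction), and KO LPS mouse 3 stood far above its group. The log2 fold change was 1.04 (SE 0.27, adjusted p = 0.00443) in wildtype and 1.54 (SE 0.26, adjusted p = 6.19e-05) in KO mice. KO LPS mouse 3 and wildtype LPS mouse 4, the highest Apaf1 libraries of their groups, also had the highest summed neutrophil markers, 373 and 376 CPM. The same libraries led their groups in monocyte markers (352 and 363 CPM) and in markers of border-associated macrophages (487 and 518 CPM), so these cell types cannot be told apart here. With the neutrophil sum as a covariate the log2 fold change was 0.51 in wildtype (adjusted p = 0.218, no longer called) and 0.89 in KO mice (adjusted p = 0.0462).

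Casp8 (chr1:58834375-58886665, plus strand) encodes the initiator caspase of death receptors. It measured 133, 90.9, 135 and 121 CPM in wildtype mice at baseline and 96.1, 66.4, 77.2, 86.3 and 81.7 CPM after LPS. KO mice had 109, 135, 114, 119 and 122 CPM at baseline and 71.3, 85.0, 99.7, 83.3 and 91.7 CPM after LPS. The KO groups were apart, while the wildtype groups overlapped through 1 baseline library, wildtype PBS mouse 2 at 90.9 CPM. The log2 fold change was -0.56 (SE 0.13, adjusted p = 0.00147) in wildtype and -0.47 (SE 0.12, adjusted p = 0.00298) in KO mice, on either side of the fold threshold of 0.5. The wildtype call was lost without wildtype LPS mouse 2 (-0.47) or wildtype PBS mouse 3 (-0.50), and a KO call appeared without KO LPS mouse 3 (-0.53) or KO PBS mouse 1 (-0.51).

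Cflar (chr1:58750321-58798047, plus strand), the neighbour of Casp8 on the chromosome that encodes its inhibitor FLIP, moved the other way. It measured 301, 237, 292 and 245 CPM in wildtype mice at baseline and 459, 419, 514, 600.0 and 740 CPM after LPS. KO mice had 291, 378, 317, 293 and 289 CPM at baseline and 480, 647, 669, 619 and 657 CPM after LPS. All LPS libraries exceeded all baseline libraries, and the log2 fold changes were 1.02 (SE 0.16, adjusted p = 2.98e-05) in wildtype and 0.97 (SE 0.15, adjusted p = 1.96e-05) in KO mice. The ratio of Cflar to Casp8 counts within a library is free of the scaling between libraries. It ranged from 2.02 to 2.61 (median 2.22) in wildtype mice at baseline and from 4.77 to 9.06 (median 6.66) after LPS. In KO mice it ranged from 2.38 to 2.80 (median 2.67) at baseline and from 6.72 to 7.61 (median 7.17) after LPS. The ratio of the inhibitor to the caspase was thus higher in each LPS library than in any baseline library.

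Among the BCL2 family, Mcl1 (chr3:95566026-95570487, plus strand), a short-lived guardian of mitochondria, rose about as much as Cflar. It measured 570, 416, 519 and 462 CPM in wildtype mice at baseline and 1131, 834, 1042, 1028 and 902 CPM after LPS. In KO mice the values were 429, 434, 508, 514 and 478 CPM at baseline and 770.1, 1170, 997, 1015 and 1328 CPM after LPS. The groups did not overlap in either genotype, with log2 fold changes of 1.01 (SE 0.15, adjusted p = 1.89e-05) in wildtype and 1.16 (SE 0.14, adjusted p = 1.32e-06) in KO mice.

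Bcl2 (chr1:106465908-106642060, minus strand), the founding anti-apoptotic member, did not pass the test in either genotype. It measured 24.0, 29.2, 20.04 and 20.6 CPM in wildtype mice at baseline and 25.1, 21.1, 19.9, 19.1 and 14.8 CPM after LPS. KO mice had 21.5, 23.5, 25.5, 23.7 and 23.7 CPM at baseline and 22.3, 20.7, 19.98, 17.2 and 13.4 CPM after LPS. LPS and baseline libraries overlapped, and the log2 fold changes were -0.23 (95% interval -0.57 to 0.11, adjusted p = 0.286) in wildtype and -0.33 (-0.65 to -0.01, adjusted p = 0.0838) in KO mice. These intervals do not hold the rise of 1.01 or more seen for Mcl1.

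Bcl2l11 (chr2:127967958-128004476, plus strand), which encodes the BH3-only protein BIM, fell after LPS. It measured 89.3, 62.1, 78.3 and 75.7 CPM in wildtype mice at baseline and 47.1, 37.6, 38.7, 44.3 and 47.3 CPM after LPS. KO mice had 72.5, 83.3, 77.7, 76.5 and 85.4 CPM at baseline and 32.8, 39.6, 48.8, 43.0 and 66.9 CPM after LPS. All LPS libraries lay below all baseline libraries of their genotype, a separation shown downwards by 17% of all genes in wildtype and 16.6% in KO mice. The log2 fold changes were -0.83 (SE 0.16, adjusted p = 0.000275) and -0.78 (SE 0.15, adjusted p = 0.000271). KO LPS mouse 5 was nearest to baseline, and without it the KO value was -0.95. Gm75592, an antisense gene with no row in the table, shares 126 bp of exon with Bcl2l11, and Gm74510 shares 69 bp on the same strand.

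With the guardian up and its antagonist down, the ratio of Mcl1 to Bcl2l11 counts went from 6.11 to 6.69 (median 6.50) at baseline to 19.1 to 27.0 (median 23.2) after LPS in wildtype mice. In KO mice it went from 5.21 to 6.72 (median 5.92) to 19.8 to 29.5 (median 23.4). The baseline ratios were close to one another in all 9 mice. The ratio of Bcl2 to Bcl2l11 was 0.256 to 0.469 at baseline and 0.314 to 0.561 after LPS in wildtype mice, and 0.277 to 0.327 and 0.201 to 0.678 in KO mice, so that the groups overlapped. These ratios are descriptions with no test.

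**Figure D2:**
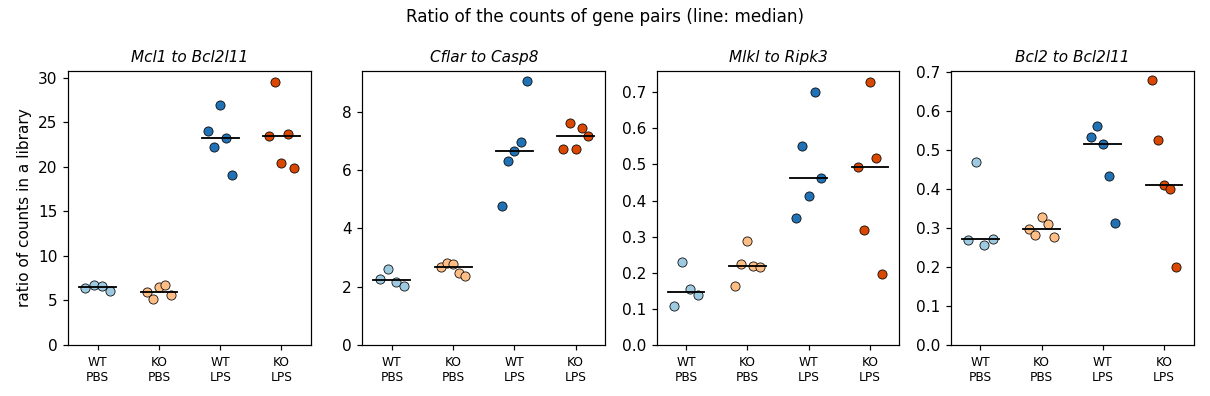
Ratio of the raw counts of 2 genes in each library (points, linear axes from 0) with the group median as a line, for WT and KO mice at baseline (PBS) and after LPS. Mcl1 to Bcl2l11 and Cflar to Casp8 are separated between baseline and LPS in both genotypes, Mlkl to Ripk3 in WT, and Bcl2 to Bcl2l11 in neither.

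Birc3 (chr9:7845790-7873229, minus strand), the cIAP2 gene, had the second largest rise of the 9. It measured 53.6, 34.8, 52.1 and 42.6 CPM in wildtype mice at baseline and 155, 145, 204, 303 and 319 CPM after LPS. KO mice had 40.4, 41.8, 51.1, 44.1 and 50.7 CPM at baseline and 159, 232, 363, 266 and 312 CPM after LPS. The groups did not overlap, but the LPS libraries of either genotype differed among themselves, with the highest at more than 2 times the lowest. The fold changes were 4.92 in wildtype (log2 2.30, SE 0.26, adjusted p = 9.06e-07) and 5.84 in KO mice (log2 2.54, SE 0.24, adjusted p = 7.74e-08).

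In the necroptosis branch, Ripk3 (chr14:56022452-56026324, minus strand) encodes the kinase that activates MLKL. It measured 8.13, 5.27, 6.31 and 6.71 CPM in wildtype mice at baseline and 28.1, 17.9, 25.9, 26.9 and 28.9 CPM after LPS. KO mice had 6.81, 6.61, 6.50, 5.29 and 6.00 CPM at baseline and 20.2, 27.5, 18.7, 24.3 and 33.6 CPM after LPS. No LPS library fell to within the baseline range, and the fold changes were 3.86 (log2 1.95, SE 0.19, adjusted p = 1.76e-07) and 3.98 (log2 1.99, SE 0.18, adjusted p = 3.64e-08).

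Mlkl (chr8:112036296-112065168, minus strand, promoter shown above) encodes the membrane-breaking effector and had the largest fold change of the 9 genes. At baseline its signal rested on few reads, 15 to 20 counts in wildtype and 18 to 37 in KO libraries. It measured 0.886, 1.21, 0.985 and 0.931 CPM in wildtype mice at baseline and 9.90, 9.86, 10.7, 18.9 and 13.4 CPM after LPS. KO mice had 1.105, 1.48, 1.88, 1.15 and 1.30 CPM at baseline and 9.96, 8.74, 13.6, 12.6 and 6.64 CPM after LPS. Every LPS library was well above every baseline library, with fold changes of 12.4 (log2 3.63, SE 0.28, adjusted p = 1.25e-08) in wildtype and 7.41 (log2 2.89, SE 0.25, adjusted p = 2.25e-08) in KO mice. An antisense gene, Gm63800, shares 672 bp of exon with Mlkl in GENCODE M39 and has no row in the table. The strand setting of the counting is not given in the sources used here, so reads of the pair could not be told apart.

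The ratio of Mlkl to Ripk3 counts was 0.109 to 0.230 (median 0.148) in wildtype mice at baseline and 0.352 to 0.700 (median 0.463) after LPS, with no overlap. In KO mice it was 0.162 to 0.289 (median 0.218) at baseline and 0.198 to 0.728 (median 0.492) after LPS, with KO LPS mouse 5 at the lower end and within the baseline range.

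**Figure D3:**
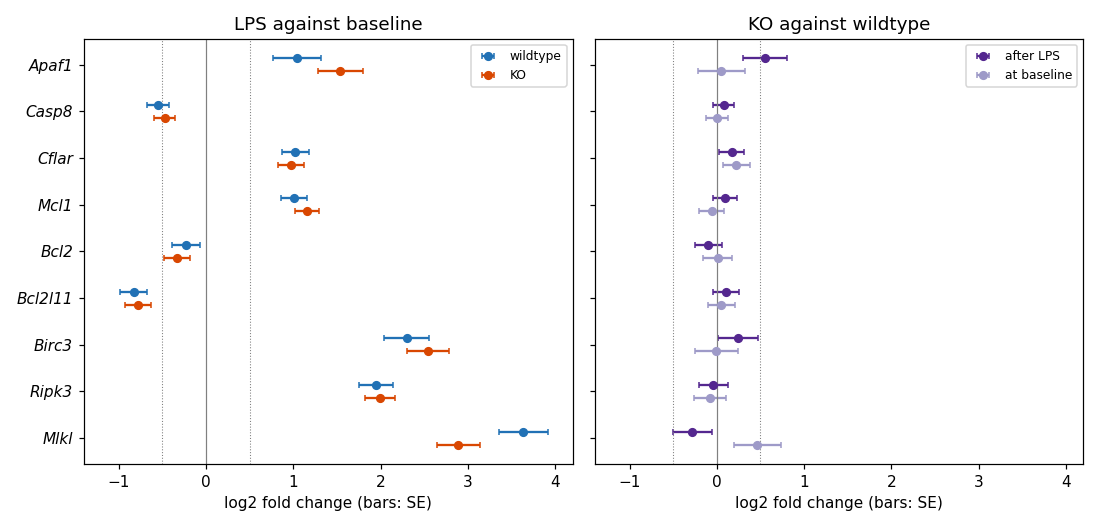
Log2 fold change of each gene with its SE (bars) from the fit over all 19 libraries, for LPS against baseline in wildtype and KO mice (left) and for KO minus wildtype mice in the LPS and the PBS groups (right), on the same axis, with dotted lines at -0.5 and 0.5. The LPS values reach 3.63 for Mlkl and -0.83 for Bcl2l11, whereas the genotype values stay between -0.28 and 0.55.

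To compare levels between genes, CPM was divided by the length of each gene's merged exons. On this scale Mcl1 was the most abundant in every group, at 141 ± 19.2 CPM per kb (SD, n = 4) in wildtype mice at baseline and 283 ± 33.9 (n = 5) after LPS. In wildtype mice at baseline Casp8 followed at 38.9 ± 6.56, then Cflar at 18.6 ± 2.25, Bcl2l11 at 7.55 ± 1.105, Birc3 at 5.27 ± 1.01, Apaf1 at 4.35 ± 0.695, Ripk3 at 2.61 ± 0.468, Bcl2 at 2.54 ± 0.456 and Mlkl at 0.173 ± 0.0250 CPM per kb. Bcl2l11 overlapped Birc3, Birc3 overlapped Apaf1, and Ripk3 overlapped Bcl2 in range, while the other neighbours were apart. After LPS the order in wildtype mice was Mcl1, Cflar at 37.8 ± 8.84, Casp8 at 26.5 ± 3.57, Birc3 at 25.9 ± 9.41, Ripk3 at 10.1 ± 1.75, Apaf1 at 8.95 ± 2.43, Bcl2l11 at 4.25 ± 0.456, Bcl2 at 2.17 ± 0.402 and Mlkl at 2.16 ± 0.659 CPM per kb. Casp8 and Cflar had exchanged places and Mlkl had reached the level of Bcl2. The neighbours whose ranges overlapped after LPS were Cflar and Casp8, Casp8 and Birc3, Ripk3 and Apaf1, and Bcl2 and Mlkl. KO mice had the same order as wildtype mice except for 2 exchanges of overlapping neighbours after LPS, Birc3 (30.7 ± 8.95) with Casp8 (28.0 ± 3.41) and Apaf1 (13.1 ± 6.84) with Ripk3 (9.82 ± 2.35), and of Bcl2 with Ripk3 at baseline. The per-length level of Cflar rests on 14458 bp of merged exons, many of them from alternative transcripts.

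Pooled over the 4 groups, Apaf1 and Birc3 had the largest spread of the 9 genes among mice of a group. The pooled SD of their log2 CPM was 0.417 and 0.392, about 2 times the median of 0.199 and 0.197 for genes of similar level. The SD of Apaf1 was 0.663 in KO mice after LPS, where mouse 3 stood apart, and 0.162 to 0.380 in the other groups. In single groups the order differed, and Mlkl had the largest SD in KO mice at baseline (0.286). The pooled SD of Casp8 (0.191), Mcl1 (0.208), Cflar (0.228), Bcl2 (0.237) and Ripk3 (0.264) was below the median of genes of their level. That of Mlkl was below it too (0.339 against 0.514), and that of Bcl2l11 above (0.239 against 0.202). In each of the 4 groups the library with the highest sum of oligodendrocyte markers had the lowest CPM of Apaf1, Casp8, Mcl1, Bcl2l11 and Birc3, which was noticed after the values were seen. These libraries were KO LPS mouse 1, KO PBS mouse 1, wildtype LPS mouse 2 and wildtype PBS mouse 2, with 11235, 7361, 6692 and 9675 CPM of these markers. With oligodendrocyte, astrocyte and neuron markers as a covariate 8 of the 9 genes were called in wildtype and 7 in KO mice, the same counts as without it.

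**Figure D4:**
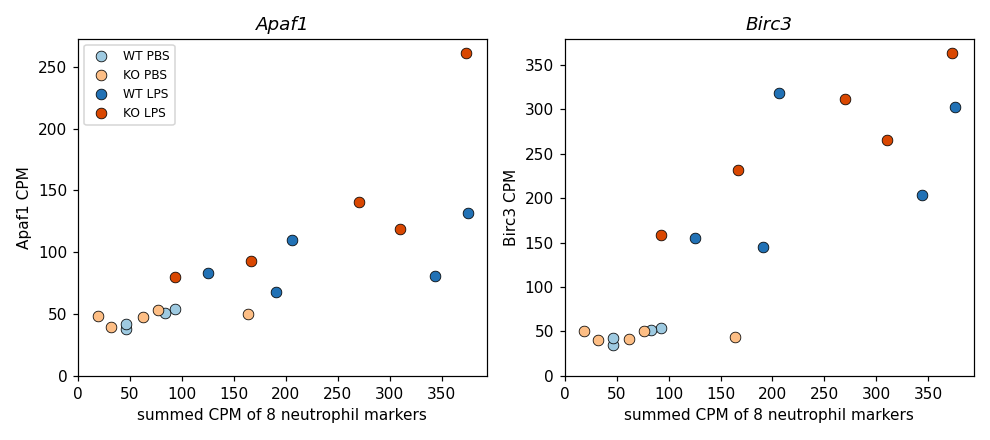
CPM of Apaf1 (left) and Birc3 (right) against the summed CPM of 8 neutrophil markers in each of the 19 libraries (points, coloured by group, linear axes from 0). The highest Apaf1 value, 261 CPM in KO LPS mouse 3, belongs to 1 of the 2 libraries with the highest marker sums (373 and 376 CPM). In 3 of the 4 groups the library with the highest marker sum has the highest Apaf1 level. In the KO PBS group that library, mouse 4 with a sum of 164 CPM, has an Apaf1 level of 49.8 CPM within its group.

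The comparison of KO with wildtype mice asks whether loss of DJ-1 alters these genes during inflammation or before it. After LPS, Apaf1 was the 1 gene of 9 past the thresholds used here for genotype, an unadjusted p under 0.05 and a log2 fold change of at least 0.5, which 0.544% of all genes passed upwards and 0.763% downwards, 1.31% together. The split of those calls over all genes depended on single libraries, with 204 upwards and 146 downwards without KO LPS mouse 1, against 102 and 143. With an adjusted p under 0.05 and any fold none of the 9 passed, and 0.0107% of all genes did. It was higher in KO mice by 0.55 on the log2 scale (SE 0.25, 95% interval 0.03 to 1.08), with edgeR's unadjusted p = 0.0410 and adjusted p = 1.00, and the groups overlapped. The difference rested on KO LPS mouse 3. Without it the value was 0.19 (edgeR, unadjusted p = 0.322), and the call was also lost without KO LPS mouse 5 or without wildtype LPS mouse 1, 2 or 3, at values from 0.46 to 0.55. No gene of the 9 had groups that did not overlap, against 0.219% of all genes, 0.0587% with KO above and 0.16% with KO below. The median of the 9 log2 fold changes was 0.10, beside 0.02 over all genes.

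For the other 8 genes the genotype difference after LPS was between -0.28 (Mlkl, 95% interval -0.75 to 0.19) and 0.24 (Birc3, -0.23 to 0.72). The narrowest intervals were those of Casp8 (0.08, -0.17 to 0.33) and Mcl1 (0.10, -0.19 to 0.38), and those of Cflar (0.17, -0.13 to 0.47), Bcl2l11 (0.10, -0.21 to 0.42), Bcl2 (-0.10, -0.42 to 0.22) and Ripk3 (-0.04, -0.39 to 0.31) were little wider. None of these differences exceeded the spread between mice, and all 8 intervals include 0. Of the cell type markers tested, 1 passed the same thresholds between genotypes after LPS, the NK cell marker Ncr1, lower in KO mice (-1.63), in a list of 7 T and NK cell markers whose sum was 0.361 to 1.90 CPM in KO and 0.853 to 3.06 CPM in wildtype mice. None of the 8 neutrophil and 5 monocyte markers did.

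At baseline none of the 9 genes passed, by edgeR or DESeq2, and none had an unadjusted p under 0.05, where 0.8% of all genes passed both thresholds, 0.224% upwards and 0.576% downwards, and 0.00534% passed at an adjusted p under 0.05. This split too depended on single libraries, with 94 genes upwards and 81 downwards without wildtype PBS mouse 2, against 42 of 150 upwards with it. The groups overlapped for all 9, whereas 0.971% of all genes had groups apart, 0.427% with KO above and 0.544% with KO below. The largest difference was that of Mlkl, higher in KO mice by 0.46 (95% interval -0.10 to 1.03, edgeR unadjusted p = 0.102, adjusted p = 1.00), with 0.886 to 1.21 CPM in wildtype and 1.105 to 1.88 CPM in KO mice. Cflar followed at 0.22 (-0.10 to 0.54). The other 7 genes lay between -0.08 and 0.05. The median of the 9 was 0.01, beside 0.00 over all genes.

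The interaction term of the same fit compared the size of the LPS response in KO and wildtype mice. No gene of the 9 passed at an adjusted p under 0.05 by edgeR or DESeq2, and by edgeR no gene of the whole table did (0% of 18739). At an unadjusted p under 0.05, which 0.961% of all genes reached, 1 of the 9 was found. It was Mlkl, with an interaction of -0.74 on the log2 scale, a smaller rise in KO mice (SE 0.35, 95% interval -1.48 to -0.01, edgeR unadjusted p = 0.0475, adjusted p = 1.00). The baseline level was higher and the LPS level lower in KO mice, neither beyond the spread between mice. The Apaf1 response was larger in KO mice by 0.50 (-0.27 to 1.26), and 0.14 without KO LPS mouse 3.

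The 9 genes belong to a wider list of 52 genes of both death pathways, of which 50 passed the filter on low counts. The other 2, Fasl and Naip1, had at most 7 counts in any library. After LPS 23 genes of the list rose and 8 fell in wildtype mice, and 26 rose and 7 fell in KO mice, beside the 18.4% and 17.4% and the 20.1% and 19% of all genes given above. Leaving out the 9 genes, 17 rose and 6 fell in wildtype and 20 rose and 6 fell in KO mice, of 41 tested. Of these, 23 were called in both genotypes in the same direction and none in opposite directions. The same count was not made over all genes, so it is not shown to be particular to this list.

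**Figure D5:**
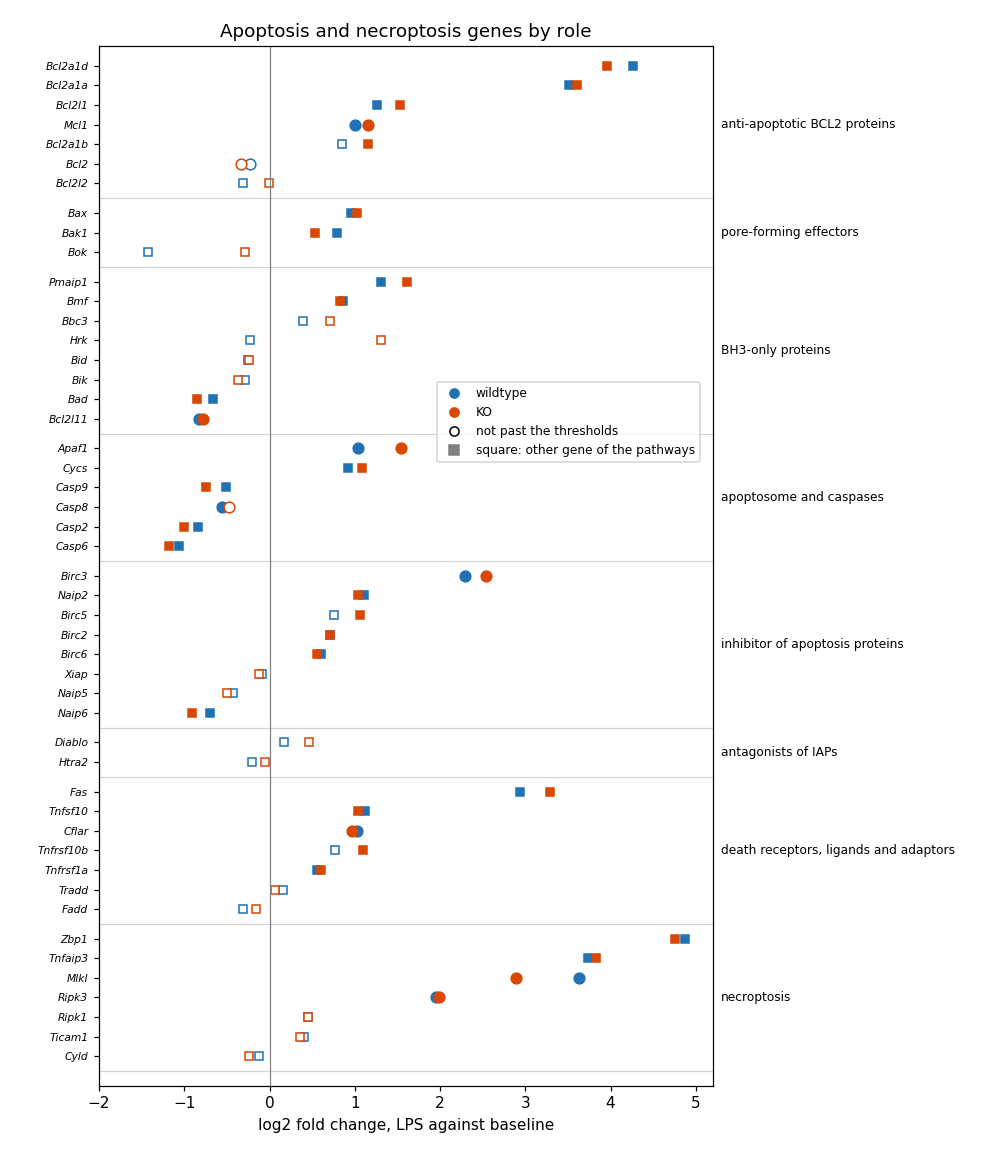
Log2 fold change of LPS against baseline in wildtype (blue) and KO (orange) mice for tested genes of both death pathways that are reported here, grouped by role, with circles for the 9 regulators, squares for other genes and open symbols for values not past the thresholds. Anti-apoptotic and necroptosis genes reach the highest values, up to 4.88 for Zbp1, and Casp2, Casp6 and Casp9 lie below 0 in both genotypes.

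Of the 7 anti-apoptotic BCL2 genes, 4 rose in wildtype and 5 in KO mice, Mcl1 among them, and none fell. The rising share of all genes was 18.4% in wildtype and 20.1% in KO mice. Bcl2l1, which encodes BCL-XL, went from 130 to 182 CPM at baseline to 301 to 404 CPM after LPS in wildtype mice (log2 1.26, SE 0.11, adjusted p = 6.12e-08). In KO mice its log2 fold change was 1.53 (SE 0.11). Bcl2a1d (4.27 in wildtype, 3.96 in KO) and Bcl2a1a (3.52 and 3.61), copies of the A1 survival gene, rose more, but near-identical copies share reads, so their separate values are uncertain. Both pore-forming effectors Bax (0.96 and 1.03) and Bak1 (0.79 and 0.54) also rose, and Bok did not pass. Of the 8 BH3-only genes, 2 rose and 2 fell in each genotype, Bcl2l11 among the falls. Pmaip1, which encodes NOXA, rose by 1.31 and 1.61, Bmf by 0.87 and 0.82, and Bad changed by -0.66 and -0.85. With 8 genes, these counts are near the shares of all genes given above.

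Among genes of the apoptosome and caspases, Apaf1 and Cycs (cytochrome c, 0.92 in wildtype and 1.08 in KO) rose in both genotypes. Casp6 (-1.06 and -1.18), Casp2 (-0.83 and -1.01) and Casp9 (-0.52 and -0.75), the caspase that APAF1 activates, fell in both, and Casp8 in wildtype mice. Of 8 tested inhibitor of apoptosis genes, 4 rose and 1 fell in wildtype and 5 rose and 1 fell in KO mice, Birc3 among the rises. The shares of all genes were 18.4% rising and 17.4% falling in wildtype, and 20.1% and 19% in KO mice. Beside Birc3, Birc2, the gene of cIAP1, rose by 0.71 in both genotypes, Birc6 by 0.60 and 0.56 and Naip2 by 1.11 and 1.04, while Naip6 changed by -0.70 and -0.91. Naip genes are close copies too, and their split of reads is uncertain. Xiap, the direct caspase inhibitor, did not pass (-0.09 and -0.12). Diablo and Htra2, antagonists of these proteins, did not pass in either genotype.

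Of 7 tested genes of death receptors, ligands and adaptors, 4 rose in wildtype and 5 in KO mice, Cflar among them. Over all genes, 18.4% rose and 17.4% fell in wildtype and 20.1% rose and 19% fell in KO mice. Fas, the death receptor, measured 1.72 to 7.03 CPM at baseline and 9.48 to 49.7 CPM after LPS in wildtype mice (log2 2.93, SE 0.46, adjusted p = 4.30e-05), and rose by 3.29 in KO mice. Tnfsf10, the TRAIL gene, rose by 1.12 and 1.04, and Tnfrsf1a, the TNF receptor 1 gene, by 0.56 and 0.61. Fadd, the adaptor of caspase-8, did not pass (-0.31 and -0.16). Of 7 necroptosis genes 4 rose in both genotypes, Ripk3 and Mlkl among them, and none fell. Zbp1, a sensor of nucleic acids that can engage RIPK3, rose from 2.50 to 3.88 CPM to 57.0 to 104 CPM in wildtype mice (log2 4.88, SE 0.23) and by 4.75 in KO mice. Tnfaip3, which encodes the ubiquitin editor A20, rose by 3.73 and 3.83. Ripk1, the kinase upstream of RIPK3, had an adjusted p of 0.00366 and 0.00210 but a log2 fold change under the threshold (0.46 and 0.45).

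Between genotypes no gene of the wider list other than Apaf1 passed both thresholds, by edgeR. After LPS, 2 of the 41 others had an unadjusted p under 0.05, against 2.57% of all genes, and both fell short of the fold threshold. Bak1 was lower in KO mice by 0.30 (SE 0.09, edgeR unadjusted p = 0.00465, adjusted p = 1.00), with 40.3, 40.1, 40.4, 37.6 and 41.8 CPM in KO and 54.0, 46.2, 54.2, 43.8 and 47.6 CPM in wildtype mice. The groups did not overlap, as for 0.219% of all genes (0.16% with KO below). Zbp1 was lower by 0.48 (SE 0.17, edgeR unadjusted p = 0.0121, adjusted p = 1.00), with overlapping groups. At baseline 1 of the 41, Cyld, had an unadjusted p under 0.05, at 0.20, against 1.04% of all genes. These 3 genes were named after their values were seen.

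The genes whose course over the 19 libraries was most like that of each regulator were sought as those with the smallest mean absolute difference in centred log2 CPM among 14460 candidates. For Mlkl they were Fmnl2 (0.208) and Sod2 (0.239), where the median candidate was at 1.58. For Birc3 they were Icam1 (0.119) and Parp14 (0.152), and for Ripk3 Siglece (0.120) and Nhp2 (0.126). Cflar was closest to Tnfaip8 (0.0897) and Ube2f (0.102), Mcl1 to Gnl2 (0.0644) and Sh3bp2 (0.0866), and Apaf1 to Dennd4a (0.118) and Bach1 (0.167). Bcl2l11 was closest to Stk11ip (0.102) and Tmem135 (0.103), Casp8 to Fam76b (0.0781) and Zmym5 (0.0843), and Bcl2 to Camk2g (0.107) and Cdyl (0.132). The points share their libraries and treatment, and these distances are descriptions.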

How the data were processed

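RNA of CD11b-enriched cells of 19 mice was sequenced as stranded total RNA after ribosomal depletion, 1 library per mouse. The deposited values are raw counts per Ensembl gene, which the authors made by trimming with Cutadapt and by aligning and counting with STAR (2.7.9a per the labels) on GRCm39. Counts per gene were used as deposited, and 0 columns belonged to other samples. Depth was 11936364 to 22788884 counts, and the floor of 3 counts covers counting error only, whereas the 95% intervals come from the fit and include the spread between mice. Groups followed the labels. Replicates of a group differed beyond sampling noise (chi-square per degree of freedom of at least 6.50), so each was counted.

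Genes were filtered with filterByExpr (at least 10 counts, 15 in total), scaled by TMM and fitted with edgeR 4.0.16 (R 4.3.3) in 1 quasi-likelihood model of 4 groups, with Benjamini-Hochberg adjustment over all 18739 genes, and the procedure was tested on simulated data. CPM are scaled by TMM. The thresholds are those of the study's methods, and the SE is the log2 fold change divided by the root of F. Gene names (56236 of 56980), positions and merged exon lengths came from GENCODE M39. Alternatives were other filters, DESeq2 1.42.0 and its size factors, the compared groups alone, the replicate block, marker covariates and leaving out each library.

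The 9 genes, the wider list and the markers were chosen with earlier results of these data known. Of the wider list the text names, per role, up to 4 genes called in both genotypes with the largest mean change, and others where a role or statement needs them. Some genes of that list are counted in its totals but not reported here.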

Additional observations from a re-analysis of the deposited data

Results flagged for a closer look

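In 2 of the 36 sets formed by 9 genes and 4 groups, 1 library lay far from the others of its group by Dixon's criterion, which chance meets in about 1 of 20 sets. Cflar measured 479.53 CPM in KO LPS mouse 1 (8526 counts), while the other 4 mice of the group had 619 to 669 CPM. That library had the highest oligodendrocyte marker sum of its group (11235 CPM). Ripk3 measured 17.8874 CPM in wildtype LPS mouse 2 (272 counts), while the other 4 had 25.9 to 28.9 CPM, and that library had the highest oligodendrocyte marker sum of its group (6692 CPM). The part of these markers in either value was not tested. Without KO LPS mouse 1 the KO log2 fold change of Cflar was 1.06, and without wildtype LPS mouse 2 the wildtype value of Ripk3 was 2.07.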

How the results depend on the processing

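The 6 rises and the fall of Bcl2l11 after LPS kept their direction under every alternative in both genotypes, and their calls except Apaf1 in wildtype mice with the neutrophil covariate (0.51, adjusted p = 0.218). Called genes of the 9 numbered 7 to 8 in either genotype when libraries were left out, and those of the wider list 28 to 31 in wildtype and 31 to 35 in KO mice. With the neutrophil covariate the wider list had 24 in wildtype (31 without it) and 28 in KO mice (33 without it). Calls over all genes fell as well with that covariate, from 6721 to 5346 in wildtype and from 7323 to 5658 in KO mice. Casp8 in KO mice was called without a filter (-0.51), with at least 10 counts in every library (-0.53) and with the neutrophil covariate (-0.64). For KO against wildtype after LPS, the count of 1 (Apaf1), for the 9 and for the wider list, became 0 with at least 10 counts in every library, with the compared groups alone, under the replicate block and with an adjusted threshold, and ranged from 0 to 1 and from 0 to 2 when libraries were left out (2 without KO LPS mouse 4). At baseline the wider list had 0 to 1 (1 without wildtype PBS mouse 2, 0 otherwise), and the interaction 0 throughout. The replicate block changed no other call among the 9. Deviations of same-numbered mice correlated at -0.04 to 0.58 (mean 0.33) between baseline and LPS in wildtype and at 0.03 to 0.54 (mean 0.25) in KO mice, and between genotypes at -0.57 to 0.30 after LPS and -0.29 to 0.30 at baseline. Not every pair was above 0.1 in any comparison, so the numbers were not taken to pair the mice. The cause of these changes was not tested.

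Over all genes, calls after LPS between genotypes numbered 245, 854 without a filter, 111 with the stricter one and 105 with the compared groups alone, and at baseline 150, 680, 58 and, under the replicate block, 234. Leaving out KO LPS mouse 5 gave 434 after LPS (164 higher, 270 lower). The balance of higher and lower calls, 102 and 143 after LPS, turned without KO LPS mouse 1 (204 and 146) or wildtype LPS mouse 1 (123 and 105). At baseline, with 42 of 150 higher, it turned without wildtype PBS mouse 2 (94 and 81) or 4 (72 and 67), and without KO PBS mouse 3 the lower calls numbered 67.

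Small genotype differences at baseline turned sign. Bcl2 was -0.00419 without a filter, -0.0143 with the stricter one, -0.00264 with DESeq2 size factors, -0.00290 with DESeq2 and -0.00977 with the neutrophil covariate. Under the replicate block Bcl2l11 was -0.0122 and Casp8 0.00177. With the compared groups alone Casp8 was 0.00558 and Birc3 0.00387, with the neutrophil covariate 0.0222 and 0.0826, and with the oligodendrocyte, astrocyte and neuron covariate 0.0231 and 0.0218. Leaving out libraries gave, at baseline, -0.0215 to 0.136 for Apaf1, -0.0593 to 0.136 for Bcl2, -0.0310 to 0.136 for Bcl2l11, -0.109 to 0.0816 for Birc3, -0.108 to 0.0598 for Casp8, -0.123 to 0.0231 for Mcl1 and -0.171 to 0.0355 for Ripk3. After LPS it gave -0.185 to 0.000854 for Bcl2, -0.0674 to 0.208 for Bcl2l11 and -0.171 to 0.0474 for Ripk3, and for the interaction -0.118 to 0.149 for Bcl2l11, -0.139 to 0.0825 for Cflar and -0.0879 to 0.130 for Ripk3.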
